A study of Tupaia belangeri with 6 samples.

Results

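The enzymes of glycolysis described here are HK1, GPI, PFKM, PFKP, ALDOA, TPI1, GAPDH, PGK1, ENO2 and LDHB, 10 genes chosen by name among the 95863 loci measured in each animal. Of these, 8 had a row under their own name and 2, ALDOA and ENO2, had none. Of the 8 rows, 5 held 1 TPM or more on average, and 3, those of TPI1, GAPDH and LDHB, were listed at 0 in every animal. The libraries were made from prefrontal cortex (PFC) RNA of 6 adult Chinese tree shrews (Tupaia belangeri), 3 females numbered 1, 3 and 4 and 3 males numbered 1, 4 and 5. The animals carried no engineered allele and received no treatment that the sources name, apart from the anaesthesia before dissection that all shared. Each male is listed as older than each female, so age and sex cannot be told apart. Values are TPM, transcript abundance scaled for length and for the total of the library. This scaling is meant to let levels of different genes be set side by side within an animal. A second measure, described below, gave another order of the enzymes below GPI. TPM keeps no read counts, and counting error is not given.

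Glycolysis converts glucose to pyruvate in the cytosol and returns ATP and NADH. Hexokinase and phosphofructokinase commit glucose to the pathway, aldolase and triosephosphate isomerase form the trioses, and the later enzymes, from glyceraldehyde phosphate dehydrogenase on, recover the energy. The brain takes most of its energy from glucose, and lactate dehydrogenase links the pathway to the exchange of lactate between its cells.

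HK1, which phosphorylates glucose and is the main hexokinase of brain, was listed as MSTRG.14718 on the minus strand of chromosome 14 (56927340 to 57129821, build TS_3.0). It held 325, 353 and 304 TPM in females 1, 3 and 4, and 402, 317 and 213 TPM in males 1, 4 and 5. The highest and the lowest values both came from males, and all 3 females lay between them. The mean was 319 ± 62.5 TPM (SD, n = 6).

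GPI, which isomerizes the hexokinase product to fructose phosphate, was the strongest of the enzymes measured under their own names (MSTRG.33241, minus strand of chromosome 21, 30759637 to 30797837). Females 1, 3 and 4 held 1167, 1455 and 1156 TPM, against 1136, 1114 and 1096 TPM in males 1, 4 and 5. The lowest female lay just above the highest male, and female 3 stood apart from the other 5 animals. By mean TPM, 1187 ± 134 (SD, n = 6), GPI ranked 72 of the 28740 genes that entered the tests.

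Phosphofructokinase, the committing step of the pathway, is built from subunits of which PFKM is the muscle type and PFKP the platelet type. PFKM (MSTRG.54035, minus strand of chromosome 6, 52974340 to 53024818) held 362, 355 and 142 TPM in females 1, 3 and 4 and 281, 337 and 333 TPM in males 1, 4 and 5. Female 4 was far below the other animals, which lay between 281 and 362 TPM. With a coefficient of variation of 27.6%, PFKM spread more among the animals than the other 4 expressed enzymes. PFKP (MSTRG.26467, minus strand of chromosome 2, 35975363 to 36054916) held 244, 244 and 200.2 TPM in females 1, 3 and 4, against 292, 198 and 184 TPM in males 1, 4 and 5. Male 1 was the highest and male 5 the lowest, and the sexes overlapped.

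PGK1, the enzyme of the first ATP-forming step, is X-linked (MSTRG.65631, plus strand of chromosome X, 58635842 to 58665054). Its levels were 307, 313 and 284 TPM in females 1, 3 and 4 and 243, 295 and 260.2 TPM in males 1, 4 and 5. It varied least of the 5, with a coefficient of variation of 9.64%, and male 4 lay above female 4. Over these 5 genes, the median SD among the 6 animals on the log2(TPM + 1) scale was 0.25, beside 0.27 for the 1764 tested genes of 100 TPM or more and 0.48 for all 28740 tested genes.

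**Figure D1:**
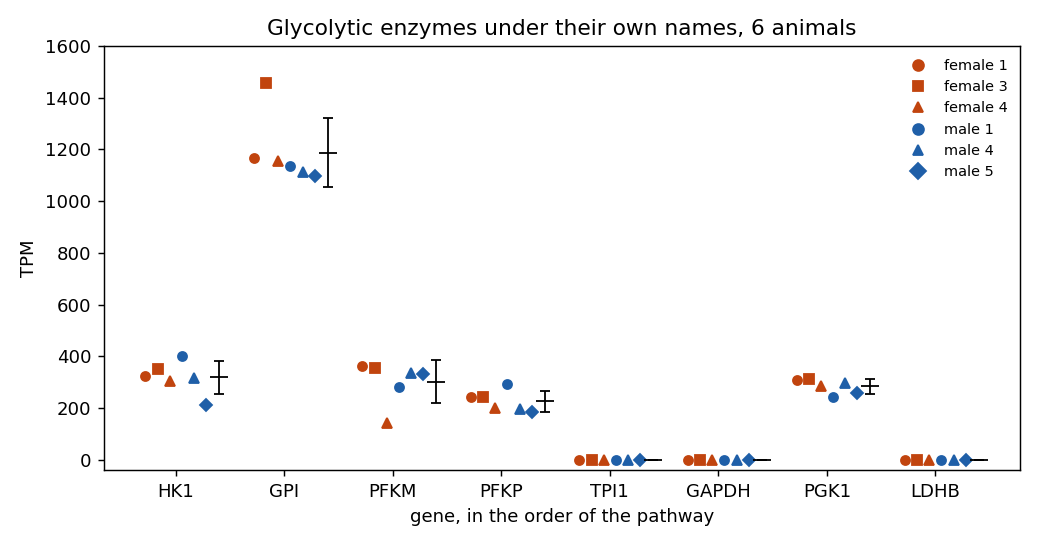
TPM of the 8 enzymes that have a row under their own name, in the order of the pathway, with 1 point per animal (females orange, males blue; the marker shape gives the animal's number) and the mean ± SD of the 6 animals as a black bar. GPI lies at 1096 TPM or above in every animal, the other expressed enzymes between 142 and 402 TPM, and TPI1, GAPDH and LDHB at 0.

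Together the rows named for the enzymes held 2405, 2720 and 2086 TPM in females 1, 3 and 4 and 2355, 2261 and 2086 TPM in males 1, 4 and 5. This sum was 2319 ± 237 TPM (SD, n = 6), or 0.216% to 0.281% of all TPM in an animal, and the sexes overlapped in it.

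Other loci lay across the 5 expressed enzymes on the opposite strand, and the sources name no strand-specific library protocol, so reads of such a pair cannot be separated with certainty. The strongest was PITRM1, across PFKP, whose TPM reached 19.1% of that of PFKP in 1 animal. For HK1, GPI, PFKM and PGK1 the strongest overlapping locus stayed at or below 9.49% of the enzyme's TPM in each animal.

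The abundance tables also give the mean read coverage of each locus. Put on the TPM scale by 1 factor per library (named scaled coverage below), it offers a second level per length for each enzyme. For GPI both levels were equal, and for PGK1 they differed by at most 1.01-fold. For PFKP, TPM was 1.26 to 1.55 times the scaled coverage. For HK1 it was 4.49 to 8.90 times, and for PFKM 3.76 to 8.56 times. Such gaps were common in these tables, since TPM exceeded the scaled coverage by more than 1.5-fold at 54.4% of the 1764 tested genes of 100 TPM or more. The cause was not tested.

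By scaled coverage HK1 and PFKM spread less among the animals. HK1 was at 54.1, 59.7 and 49.6 in females 1, 3 and 4 and at 45.2, 52.2 and 47.5 in males 1, 4 and 5, so that male 1, which had the highest TPM, had the lowest coverage. PFKM was at 42.8, 42.2 and 37.7 in females 1, 3 and 4 and at 32.8, 40.1 and 42.0 in males 1, 4 and 5, where female 4 was no longer the lowest. The coefficient of variation of PFKM was 9.58% by coverage, and that of HK1 was 10.1% in place of 19.6% by TPM.

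**Figure D2:**
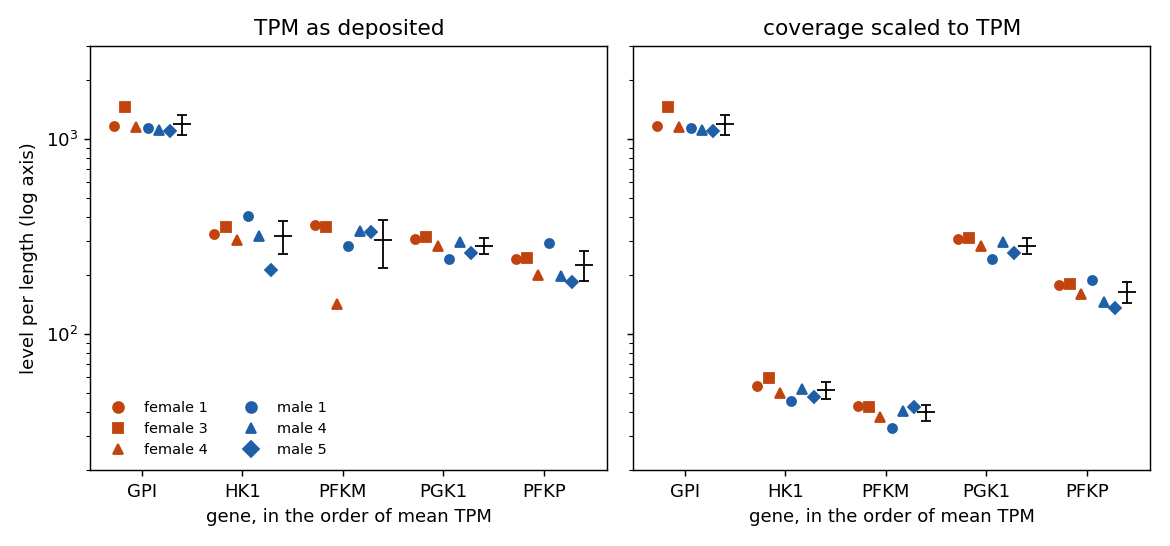
Deposited TPM (left) and coverage scaled to TPM (right) of the 5 expressed enzymes on a shared log axis, with 1 point per animal and the mean ± SD of the 6 animals as a black bar. GPI and PGK1 keep their level, whereas HK1 drops from a mean of 319 to 51.4 and PFKM from 302 to 39.6.

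By mean TPM the order was GPI, HK1, PFKM, PGK1 and PFKP, with means of 1187, 319, 302, 284 and 227 TPM. Neighbours in this order were compared within each animal by an exact two-sided sign-flip permutation test of log2(TPM + 1), adjusted over 4 pairs. GPI exceeded HK1 in 6 of 6 animals by 1.91 ± 0.28 (SD) on the log2 scale, with an exact p of 0.03125, the smallest that 6 animals can give, and an adjusted p of 0.125. HK1 and PFKM did not differ beyond their spread, with a difference of 0.12 ± 0.60 (SD) and an exact permutation p of 0.75, and PFKM was the higher in 4 of 6 animals. PFKM and PGK1 were likewise not separated, at 0.03 ± 0.51 (SD) and an exact permutation p of 1, with PFKM above PGK1 in 5 of 6 animals. PGK1 lay above PFKP in 5 of 6 animals, by 0.33 ± 0.31 (SD), with an exact permutation p of 0.0625 and an adjusted p of 0.125. No pair passed a threshold of 0.05 after adjustment. The pairs and their direction were taken from the means of the same animals, so the p-values are no independent test of the order.

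By scaled coverage, a measure added after the data were seen, the order became GPI, PGK1, PFKP, HK1 and PFKM, with means of 1187, 283, 165, 51.4 and 39.6. Every one of the 4 neighbouring pairs had the same direction in 6 of 6 animals. Each had an exact permutation p of 0.03125, which remained 0.03125 after adjustment over the 4 pairs. Here too the pairs and their direction came from the tested values, so these p-values are no independent support for the order. PFKP exceeded HK1 by 1.66 ± 0.21 (SD) on this log2 scale, although its mean TPM was lower than that of HK1. The place of GPI at the top was shared by both measures, and the order below it was not.

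Enzymes of the same step were compared in the same way. HK2, the inducible hexokinase of muscle and fat, held 1.89 to 4.45 TPM, so that HK1 made up 98.6% to 99.5% of the TPM of both. HK1 exceeded HK2 in 6 of 6 animals by 6.25 ± 0.51 (SD) on the log2 scale (exact permutation p of 0.03125, adjusted p of 0.0625 over 2 pairs). By scaled coverage its share was 94.9% to 97.2%. HK3, a further hexokinase, held 12.2 to 20.2 TPM, but 1.81 to 2.84 by scaled coverage, with a mean of 2.31 beside 2.29 for HK2.

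PFKM made up 41.5% to 64.4% of the TPM of PFKM and PFKP, and lay above PFKP in 4 of 6 animals. This difference of 0.36 ± 0.53 (SD) on the log2 scale did not exceed its spread (exact permutation p of 0.156). By scaled coverage the share of PFKM was 14.8% to 23.6%, and PFKP was the higher in 6 of 6 animals, with PFKM minus PFKP at −2.03 ± 0.27 (SD) on the log2 scale (exact permutation p of 0.03125 before and after adjustment over 2 pairs). Which of both subunits is the more abundant in these cortices therefore turns on the measure. No row was named PFKL, the liver-type subunit, or ALDOC, the aldolase of brain. The row of ENO1, the widely expressed enolase, was listed at 0, and LDHA, the muscle-type subunit of lactate dehydrogenase, held 88.1 to 144 TPM. The pairs that involve ALDOA, ENO2 and LDHB therefore have no test under the enzymes' own names.

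The 3 rows listed at 0 lay apart from the genes that neighbour these enzymes in the RefSeq annotation of the assembly TupChi_1.0. The rows were on chromosome 1 (TPI1, 354091 to 354698, and LDHB, 50553077 to 50618771) and on chromosome 11 (GAPDH, 50424745 to 50426160). None of the RefSeq neighbours of these genes was found within 200000 bp of them on TS_3.0. For each of the 5 expressed enzymes, at least 1 RefSeq neighbour was found that near. The loci at or beside which the neighbours of the 5 other enzymes do lie (neighbour loci) were therefore examined, a choice made after the values were seen. That these loci hold the enzymes' transcripts was not tested, and they are given under the names in the tables.

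The neighbours of TPI1, SPSB2 and CDCA3, overlapped a locus named TPI1li1 on the minus strand of chromosome 6 (33945276 to 33965407). TPI1li1 held 551, 468 and 574 TPM in females 1, 3 and 4 and 438, 553 and 407 TPM in males 1, 4 and 5. It was the only copy of TPI1, a name followed by li and a number, and it held 100% of the TPM under the name of TPI1 or its copies. Its TPM was 1.04 to 1.10 times the scaled coverage, so here both measures nearly coincided.

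GAPDH, the dehydrogenase that makes the NADH of the pathway, has IFFO1, NCAPD2 and MRPL51 among its RefSeq neighbours. On chromosome 6 the locus named NCAPD2 (34320716 to 34366468, minus strand) overlapped the loci of IFFO1 and MRPL51. This locus held 7442, 1270 and 4798 TPM in females 1, 3 and 4 and 2566, 6258 and 4899 TPM in males 1, 4 and 5. With a mean of 4539 ± 2287 TPM (SD, n = 6) it ranked 6 of the 28740 tested genes, and its animals differed by up to 5.86-fold. Scaled coverage was 1006, 945 and 1148 in females 1, 3 and 4, against 759, 999 and 741 in males 1, 4 and 5, a range of 1.55-fold. Female 3, the lowest by TPM, was thus near the middle by coverage. The 32 copies named for GAPDH held 0.715 to 5.24 TPM in all, and 17 of them were above 0 in at least 1 animal.

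ENO2, the neuronal enolase, has 3 named RefSeq neighbours, of which only ATN1 was found. That neighbour is itself the locus described here, so no other gene marks the place. The locus named ATN1 (chromosome 6, minus strand, 33868683 to 33906477) held 1761, 1702 and 1897 TPM in females 1, 3 and 4 and 1268, 1624 and 1543 TPM in males 1, 4 and 5. All 3 females lay above all 3 males, as the sexes did not overlap at 9.81% of all tested genes. By scaled coverage, at 415 to 443 in females and 311 to 437 in males, the sexes overlapped.

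ALDOA, the aldolase of muscle and brain, has TLCD3B and TBX6 among its RefSeq neighbours. Between these genes an unnamed locus on the plus strand of chromosome 2 (59499736 to 59526797) held 1740, 1742 and 1742 TPM in females 1, 3 and 4 and 1822, 1738 and 1539 TPM in males 1, 4 and 5. Its coefficient of variation of 5.50% was below that of each of the 5 expressed enzymes. By scaled coverage the locus was at 640.0 to 836, with a coefficient of variation of 8.74%. It overlapped the locus of TBX6 on the other strand, whose TPM reached 17.4% of its own.

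LDHB, the heart-type subunit that favours the conversion of lactate to pyruvate, has GYS2 and SPX among its RefSeq neighbours, and both were found on the same side of the locus described here. An unnamed locus on the plus strand of chromosome 6 (18801836 to 18827416), 28102 bp from GYS2, held 814, 879 and 817 TPM in females 1, 3 and 4. Males 1, 4 and 5 held 1041, 772 and 739 TPM, so that male 1 was the highest and male 5 the lowest of the 6 animals. Its TPM was 2.24 to 2.28 times the scaled coverage in every animal. The 13 copies named for LDHB held 2.51 to 6.37 TPM in all, and 6 were above 0 in at least 1 animal. The strongest was LDHBli8, then LDHBli9 and LDHBli2, and the strongest of the GAPDH copies were GAPDHli16, GAPDHli10 and GAPDHli28.

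**Figure D3:**
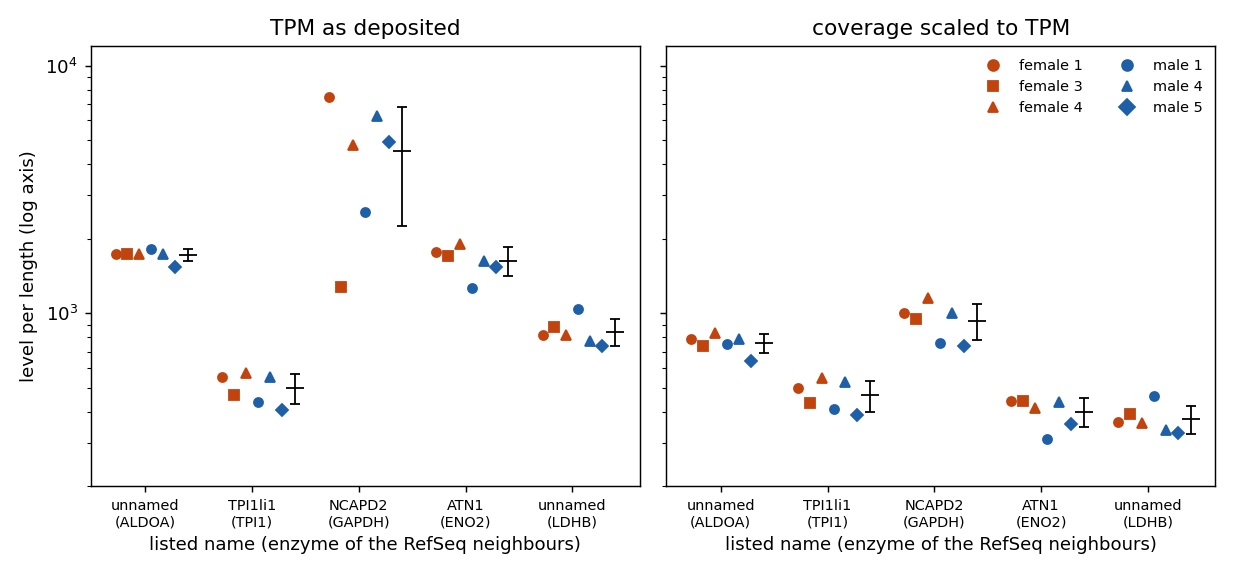
TPM (left) and scaled coverage (right) of the 5 loci that lie at or beside RefSeq neighbours of an enzyme without signal under its own name, on a shared log axis, with 1 point per animal and the mean ± SD of the 6 animals as a black bar. The locus named NCAPD2 spans 1270 to 7442 TPM, but 741 to 1148 by coverage.

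In all, 47 rows were named as copies of the enzymes, 1 of HK1, 1 of TPI1, 32 of GAPDH and 13 of LDHB. The copy of HK1, HK1li1, was at 0 in every animal. The copies held 14.9% to 21.8% of the TPM of enzymes and copies together, nearly all of it at TPI1li1. The 5 neighbour loci held 6062 to 12308 TPM in an animal, beside 2086 to 2720 TPM under the enzymes' own names. By scaled coverage the sums were nearer each other, at 2455 to 3308 for the loci and 1582 to 2049 for the enzymes' own names.

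None of the 5 expressed enzymes differed between females and males in the test across all genes (limma on log2(TPM + 1), adjusted p under 0.1). Of all 28740 tested genes, 5 passed this threshold (0.0174%). None of the 5 enzymes had an unadjusted p under 0.05, beside 5.01% of all tested genes. The females and males did not overlap in 1 of the 5, GPI, beside 9.81% of all tested genes.

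The difference of GPI, female minus male, was 0.17 on the log2 scale (SE 0.24, limma adjusted p = 0.957), with a 95% confidence interval from −0.39 to 0.72, and it was 0.06 without female 3. HK1 differed by 0.12 (95% interval −0.44 to 0.68; −0.13 without male 5) and PFKP by 0.05 (−0.44 to 0.55; −0.075 without male 5, −0.0213 without male 4 and 0.26 without male 1). PGK1 differed by 0.18 (−0.21 to 0.57; 0.12 without male 1), the narrowest of these intervals. The value for PFKM, −0.26 (−1.05 to 0.53), rested on female 4, and was 0.18 without it and 0.10 by scaled coverage. The interval of each enzyme reaches beyond a log2 difference of 0.5 on at least one side. Over the 5 enzymes the median difference was 0.12, beside 0.09 for the 1764 tested genes of 100 TPM or more and −0.03 for all tested genes.

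The neighbour loci passed no threshold either. TPI1li1 differed by 0.20 (SE 0.21, limma adjusted p = 0.939; 0.10 to 0.32 with each animal left out) and the locus named ATN1 by 0.28 (SE 0.27, limma adjusted p = 0.933; 0.17, without male 1, to 0.35 with each animal left out, and 0.16 with quantile normalization). The unnamed loci beside ALDOA and LDHB differed by 0.04 and −0.01, with ranges of −0.03 to 0.09 and −0.10 to 0.15 when each animal was left out. The locus beside ALDOA was at 0.13 by scaled coverage, and the locus beside LDHB at −0.14 with a replicate block. For the locus named NCAPD2 the value of −0.26 had an interval from −1.86 to 1.33, and it was 0.32 by scaled coverage. With each animal left out it ran from −0.80 (without female 1) to 0.48 (without female 3). With a replicate block it was 0.58.

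**Figure D4:**
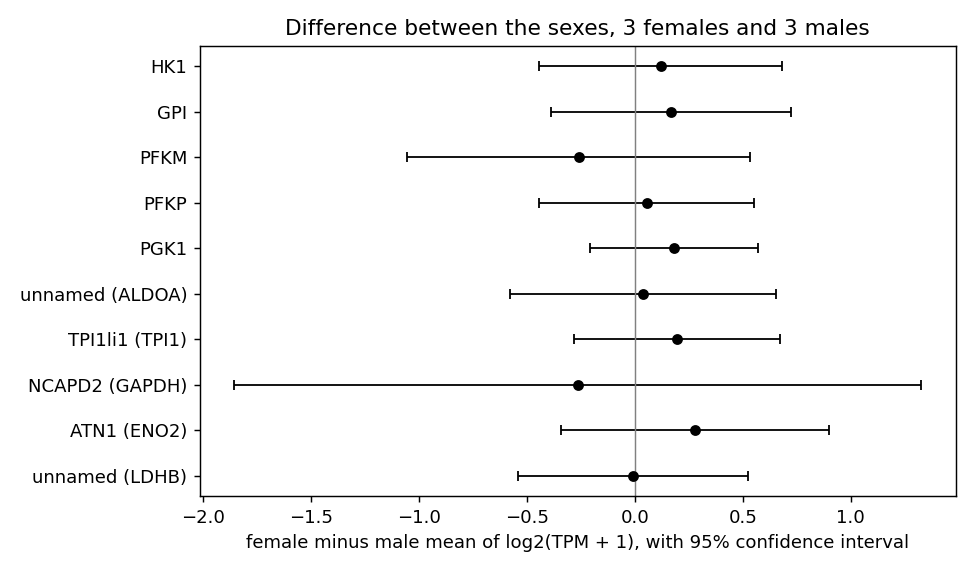
Female minus male mean of log2(TPM + 1) with its 95% confidence interval from limma, for the 5 expressed enzymes and the 5 neighbour loci (the enzyme whose RefSeq neighbours mark the locus is in parentheses). Every interval spans 0, and that of the locus named NCAPD2, from −1.86 to 1.33, is the widest.

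Bulk tissue was sequenced, so fewer cells of a type and less RNA per cell cannot be told apart. Neuronal markers, such as SNAP25 and SYT1, (9 of 10 with a row) had sums of 8926 to 11302 TPM in females, which enclosed the 9621 to 9829 TPM of the males. RBFOX3 had no row and NEFL was under 1 TPM. Astrocyte markers (5 of 8 with a row) spanned 1404 to 2079 TPM in the females, against 1432 to 2184 TPM in the males, and microglial (6 of 8) and endothelial (6 of 6) markers also overlapped between the sexes. Oligodendrocyte markers (5 of 8) had higher sums in every female (534 to 748 TPM) than in any male (152 to 426 TPM). Blood markers (3 of 7) did so too, with 1275 to 2542 TPM for the females, against 62.7 to 101 TPM for the males. Choroid plexus markers (3 of 5) were low, at 6.17 to 10.7 TPM among the females, with the sexes overlapping, and markers of striatal projection neurons (4 of 8) summed to 113 to 506 TPM, also with overlap. The oligodendrocyte and blood sums thus moved with sex, and their part in the values of the enzymes was not tested.

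The other genes of glucose metabolism were taken from 8 lists of 101 genes, of which 76 had a row and 62 were tested. None passed the threshold in either direction or had an unadjusted limma p under 0.05. The sexes did not overlap for 5 of the 62 (8.06%, beside 9.81% of all tested genes), and the median difference was 0.02. Of the 62, 33 were higher and 29 lower in the female mean.

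Among the isozymes and remaining steps (8 tested), LDHA was the strongest, at 125 to 144 TPM for females, against 88.1 to 123 TPM for males. ENO3, the muscle enolase, had the largest difference of the list, 0.59, at a mean of 1.47 TPM. For pyruvate kinase and phosphoglycerate mutase, the remaining steps, loci named as copies held 1574 to 2143 TPM (PKMli1) and 349.9 to 401 TPM (PGAM1li1). By scaled coverage these were at 494 to 742 and 183 to 209. That they hold the enzymes' transcripts was not tested. PKMli1, no gene of the lists, was at 2044 to 2143 TPM among females, against 1574 to 1962 TPM among males, so that the sexes did not overlap, nor did they by scaled coverage. Its difference of 0.27 did not pass the threshold (limma adjusted p = 0.939). The row named PKM held at most 2.59 TPM, and the row named PGAM1 at most 0.253 TPM.

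Of the 5 tested genes that regulate fructose bisphosphate, PFKFB3, which makes the activator of phosphofructokinase, was the strongest at 43.5 to 78.7 TPM, and FBP1 differed most, by 0.22 at a mean of 0.237 TPM. Of 10 transporters, SLC2A1, the glucose transporter of the blood-brain barrier, was the strongest at 81.7 to 139 TPM. SLC2A13, a myo-inositol transporter, differed by −0.52. Of 8 genes of pyruvate entry into mitochondria, MPC2, a subunit of the pyruvate carrier, led at 198 to 289.8 TPM. PDK4, a kinase that inhibits pyruvate dehydrogenase, differed by −0.52, with male 5 at 62.2 TPM and the other animals at 35.9 TPM or below.

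In the pentose phosphate pathway (3 tested) TKT, transketolase, held 298 to 361 TPM. TALDO1, transaldolase, was at 267 to 308 TPM among females, against 193 to 239.9 TPM among males, a difference of 0.40. Of 10 genes of glycogen metabolism, PYGB, the brain glycogen phosphorylase, was the strongest at 149 to 192 TPM, and PHKA1, a phosphorylase kinase subunit, differed by −0.41. GYS1, glycogen synthase, was at 18.4 to 19.0 TPM among females, against 11.9 to 17.9 TPM among males. Of 9 genes of the NADH shuttles, MDH2, mitochondrial malate dehydrogenase, held 926 to 1291 TPM, and SLC25A13 differed by 0.37.

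Of 9 hypoxia-inducible regulators and targets, a group that includes factors known to induce glycolytic genes, BNIP3 was the strongest at 125 to 179 TPM. NDRG1 had the largest difference of all 62 genes, 0.64 (SE 0.29, limma adjusted p = 0.925), with 73.0 to 110 TPM among females, against 42.5 to 88.5 TPM among males. VEGFA, the fifth gene beside ENO3, LDHA, TALDO1 and GYS1 whose sexes did not overlap, was at 55.9 to 65.7 TPM among females, against 45.3 to 55.0 TPM among males. By scaled coverage the sexes overlapped for LDHA, with females at 91.8 to 92.6 and males at 65.1 to 93.4, and for VEGFA, with females at 36.0 to 46.0 and males at 30.0 to 40.9.

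**Figure D5:**
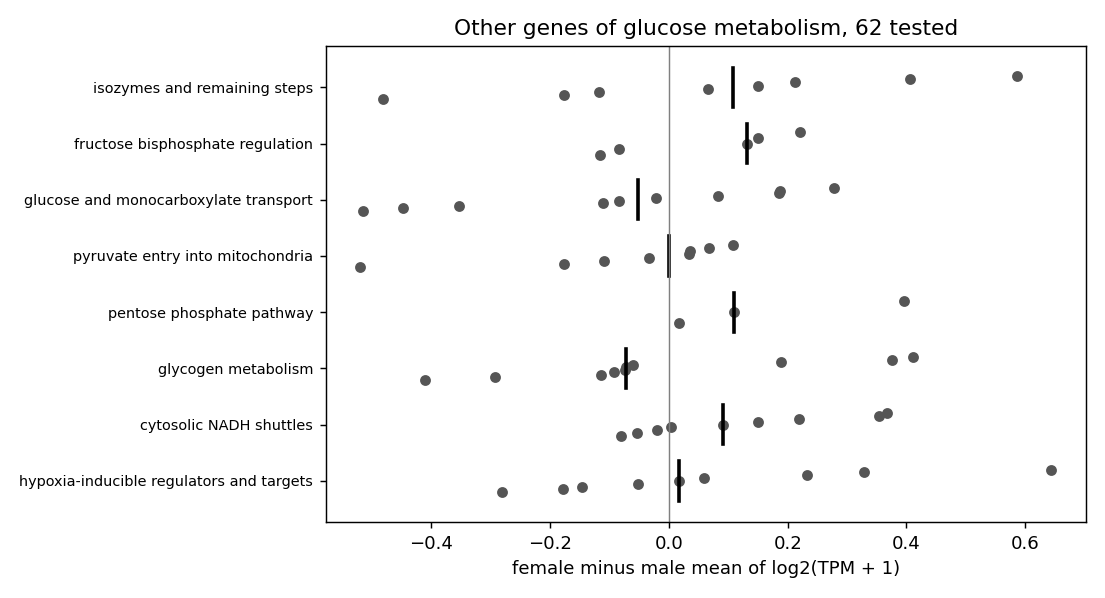
Female minus male mean of log2(TPM + 1) for the 62 tested genes of the 8 lists, with 1 point per gene and a vertical bar at the median of each list. The points lie on both sides of 0 in 7 lists, all 3 genes of the pentose phosphate pathway lie above it, and no gene passed the limma threshold.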

How the data were processed

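Total RNA of each animal's PFC was enriched for polyadenylated RNA and sequenced, and animals were not pooled. The authors mapped the reads to TS_3.0 with HISAT2 2.2.1 and assembled and measured transcripts with StringTie 2.2.1. The deposited TPM values sum to 950532 to 971492 per library, and the deposited FPKM differs from TPM by 1 factor per library. The deposited coverage is the mean depth of a locus. It was scaled to TPM by the TPM to coverage ratio of loci without a strand, which was within 2% of its library's median at 100% of these loci. Mean depth is thus given per locus, but counts of reads are not. The number of reads per library cannot be taken from these values, and counting error was not estimated. The authors' test on counts could not be repeated.

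TPM was summed over rows of a gene ID on a chromosome. Genes that reached 0.1 TPM in no fewer than 3 animals (27996 autosomal, 744 X-linked) were tested in R 4.3.3 with limma 3.58.1 on log2(TPM + 1), with a mean-variance trend, no covariate and Benjamini-Hochberg adjustment within autosomes and within X at a threshold of 0.1. This scale understates the change of weak genes. The male-only segments that the authors removed were left out. Levels were compared by exact sign-flip permutation in Python 3.11.15 with numpy 2.4.6 and pandas 2.3.3, and drawn with matplotlib 3.10.9. The scripts were tested on simulated data. The permutation p-values measure the spread between animals. The limma SE, intervals and p-values also draw on the other tested genes, so they are not the spread of one gene's animals alone. For GPI, at an unchanged difference of 0.17, the SE was 0.24 with the filter used. It was 0.18 with a filter of at least 1 TPM in 3 or more animals, and 0.27 with no filter.

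The enzymes and lists were chosen with earlier results of these data known. Named are the enzymes, up to 3 strongest copies of each, their isozymes, and per list the strongest gene and the gene with the largest difference, plus the 5 genes most alike the enzymes. The neighbour loci, GYS1 and VEGFA were added after their values were seen. Alternatives were 2 pseudocounts, 2 filters, 2 scalings, stranded loci alone, rows kept apart, gene IDs of a name summed, copies added, no trend, a joint adjustment, a replicate block and each animal left out. Scaled coverage was added after the data were seen. Methylation was not analysed here.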

Additional observations from a re-analysis of the deposited data

How the results depend on the processing

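No expressed enzyme passed the threshold or had an unadjusted limma p under 0.05 under any alternative run for the difference between the sexes. Gene IDs of a name were summed only for the order of levels and the isozymes. The signs of GPI and PGK1 held under these alternatives, but GPI went from 0.17 to 0.0585 without female 3 and 0.0458 with the replicate block, and PGK1 from 0.18 to 0.0971 with quantile normalization. Those of the other 3 did not: PFKP went from 0.05 to −0.0187 with quantile normalization and −0.0028 over stranded loci, and PFKM from −0.26 to 0.098 by scaled coverage. With each animal left out in turn, HK1 ran from −0.13 (without male 5) to 0.33, PFKM from −0.49 to 0.18 (without female 4) and PFKP from −0.075 (without male 5; −0.0213 without male 4) to 0.26. The animal numbers 1 and 4 occur in both sexes. Deviations from the group means correlated at 0.00098 between the animals numbered 1 and at 0.0383 between those numbered 4. Whether these animals share more than a number cannot be told from these values. With the number as a replicate block HK1 was −0.18, PFKP −0.12 and 0 enzymes were called.

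The number of neighbouring pairs with 1 direction in every animal was 1 of 4, 3 of 7 with copies added, 4 of 4 by scaled coverage, and 1 to 2 with an animal left out (2 without male 1) where the order was redrawn each time. HK1 and PFKM changed places without female 4 and without male 1. In the order of all 6 animals, PFKM also lay above PGK1 in 5 of 5 animals without female 4. For isozymes it was 1 of 2, 2 of 3 with copies added (which adds LDHB with its copies against LDHA), and 2 of 2 by scaled coverage, where PFKM to PFKP turned direction. The summed TPM of 2319 became 2825 with copies added and 1726 by scaled coverage. The causes were not tested. With 6 animals and no read counts, small differences between the sexes could not be resolved.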

Other observations

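Across the 6 libraries, the genes whose TPM ran most alike the mean z-score of the 5 expressed enzymes were TDRP (Pearson r 0.986), PIK3R3 (0.985), FOSB (0.980), SUPT6H (0.972) and ABCB4 (0.971). This is a description over 6 libraries that share their scaling, and 76 of the 6394 genes compared reached 0.9. The mean z-score was highest in female 3, at 0.931, and lowest in male 5, at −0.82. Among the 5 enzymes themselves, r of log2(TPM + 1) ranged from −0.16 for PFKP and PGK1 to 0.85 for HK1 and PFKP. By scaled coverage these pairs had r of 0.07 and 0.22, and the range was −0.38 for PFKM and PFKP to 0.94 for HK1 and PGK1.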
